A study of Mus musculus with 9 samples.

Results

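The 10 genes described here encode chemoattractant receptors that guide the movement of B cells and plasma cells (PCs): Cxcr5, Ccr7, Gpr183, S1pr1, S1pr2, Cxcr4, Cxcr3, Ccr6, Ccr9 and Ccr10. They were taken by name from a table of 29995 genes, and all 10 were among the 12892 genes tested. RNA was sequenced from spleen cells of 12-week-old B6.Blimp1+/GFP mice, which carry 1 Prdm1 allele that reports Blimp1 through GFP, 4 days after 50 µg NP-LPS was given intraperitoneally. Each of the 3 groups had 3 libraries. Naive B cells were sorted as IgD high, B220+ and NP-, and came from immunized mice, since the series has no unimmunized mice. Antigen-binding cells without the PC markers GFP and CD138, called NP+ B cells here, were sorted as NP+, IgD-, GFP-, CD138- and B220+. PCs were sorted as NP+, IgD-, GFP+, CD138+ and B220+ or B220-. Cells that bore CD4, CD8a, Ter-119 or F4/80 were removed from all 3 groups.

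Lymphocytes find their place in the spleen by reading gradients of chemokines and lipids through receptors that couple to G proteins. CXCR5 draws B cells to CXCL13 in the follicle, CCR7 draws them to the T cell zone, and GPR183 (EBI2) follows oxysterols to the follicle's outer edge. S1PR1 senses sphingosine 1-phosphate (S1P) and favours exit from the tissue, whereas S1PR2 signals through Gα13 and holds germinal centre B cells together. CXCR4 responds to CXCL12, which marks the red pulp and bone marrow niches of PCs. CXCR3 answers to interferon-induced chemokines, CCR6 to CCL20, CCR9 to CCL25 of the small intestine and CCR10 to CCL27 and CCL28 of skin and mucosa.

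Levels are TPM (transcript abundance corrected for transcript length and scaled to a fixed sum) from the deposited table without immunoglobulin (Ig) genes, so levels of different receptors can be set side by side. A log2 change is a fitted difference from limma voom, and its adjusted p-value is from limma with Benjamini-Hochberg adjustment over the 12892 genes. A gene rose or fell where that p-value was under 0.05 and the change was over 2-fold. The libraries held 28490300 to 31719400 estimated reads without Ig genes in naive B cells, 34918400 to 38602300 in NP+ B cells and 20189900 to 22137400 in PCs, and 3 reads of a receptor correspond to 0.027 to 0.12 TPM, depending on its length and the library. The sort markers followed the gates: Prdm1 was at 2.5 ± 0.659, 4.76 ± 2.19 and 98.2 ± 19.0 TPM (SD, n = 3) in naive B cells, NP+ B cells and PCs, and Sdc1, which encodes CD138, at 7.02 ± 2.33, 0.943 ± 0.744 and 290 ± 34.0 TPM. Ighd, read in the table with Ig genes, averaged 2840, 40.3 and 0.704 TPM. PC replicate 3 stood apart by its liver transcripts, whose 12 listed genes summed to 6590 TPM there against 4.59 to 66.1 TPM in the other 8 libraries. In bulk libraries, fewer cells that carry a transcript and less of it per cell cannot be told apart.

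**Figure D1:**
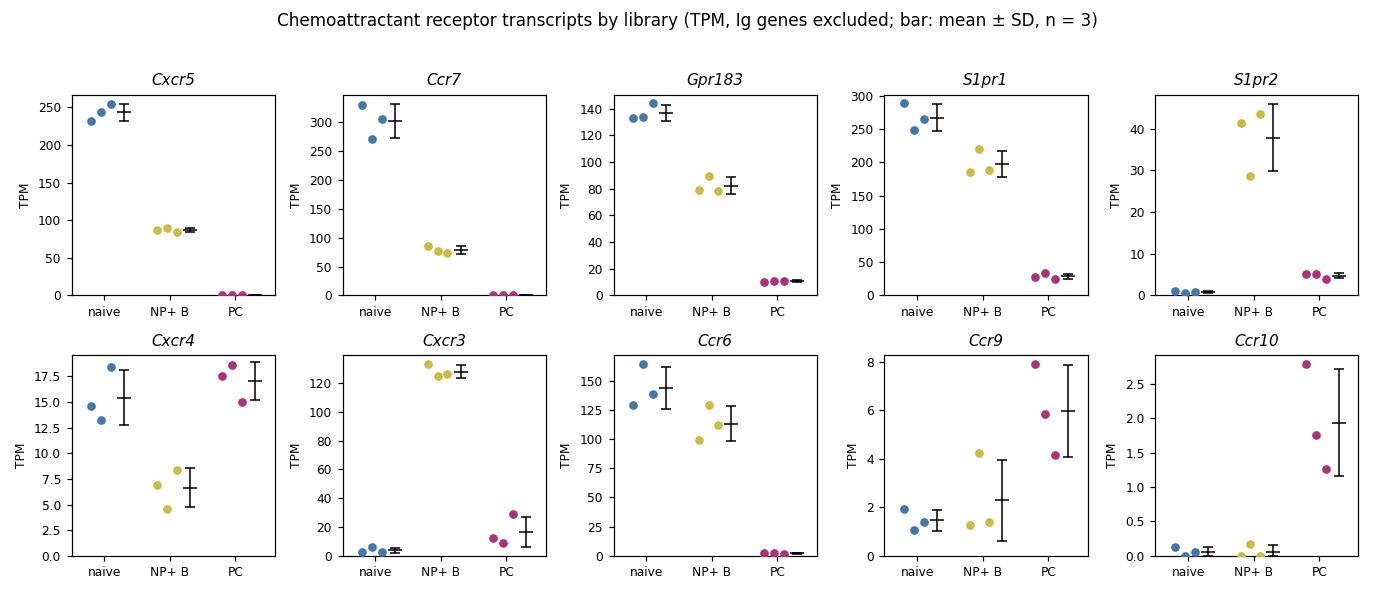
Level (TPM, linear axis from 0) of each of the 10 receptor genes in the 9 libraries: points are libraries, horizontal bars with whiskers are the mean ± SD of 3 libraries. Cxcr5 and Ccr7 stepped down from naive B cells to NP+ B cells to PCs, Cxcr3 and S1pr2 peaked in NP+ B cells, and Ccr10 was above 1 TPM in the PC libraries only.

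The naive B cell profile was made of 5 receptors. Ccr7 was highest at 303 ± 28.9 TPM (SD, n = 3), followed by S1pr1 at 268 ± 20.4 and Cxcr5 at 243 ± 11.1 TPM, and the libraries of neighbours in this order overlapped. Ccr6 at 144 ± 18.0 and Gpr183 at 137 ± 6.32 TPM came next and also overlapped. Cxcr4 was at 15.4 ± 2.71 TPM, and Cxcr3, Ccr9, S1pr2 and Ccr10 had means from 0.0601 to 3.86 TPM. In NP+ B cells the order was S1pr1, then Cxcr3 and Ccr6 with overlapping libraries, then Cxcr5, Gpr183 and Ccr7 with overlapping libraries, then S1pr2, Cxcr4, Ccr9 and Ccr10. By their means in PCs S1pr1 was again first, Cxcr4, Cxcr3 and Gpr183 followed, and Cxcr5 and Ccr7 were last. Cxcr3 spread from 8.55 to 28.7 TPM there and overlapped with S1pr1, Cxcr4 and Gpr183, which did not overlap with one another.

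Summed over the 10 receptors, the level fell from group to group without overlap. The sums were 1130, 1080 and 1130 TPM in the naive libraries 1 to 3, then 719, 766 and 715 TPM in NP+ B cells and 86.3, 87.6 and 92.5 TPM in PCs. The composition of that sum differed more than its size shows. Ccr7 and Cxcr5 made up 27.1% ± 1.99 and 21.8% ± 1.17 (SD, n = 3) of the sum in naive B cells, 10.7% ± 1.08 and 11.9% ± 0.271 in NP+ B cells and 0.327% ± 0.325 and 0.761% ± 0.599 in PCs. Cxcr4 made up 1.38% ± 0.219 in naive B cells and 19.2% ± 2.66 in PCs. Gpr183 held 12.3% ± 0.504, 11.2% ± 0.420 and 12.1% ± 0.631 of the sum in the 3 groups. Its own level, without Ig genes in the table, differed 12.8-fold between naive B cells and PCs. The shares are descriptions, and since they add up to a fixed total a gain of any receptor lowers the others.

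**Figure D2:**
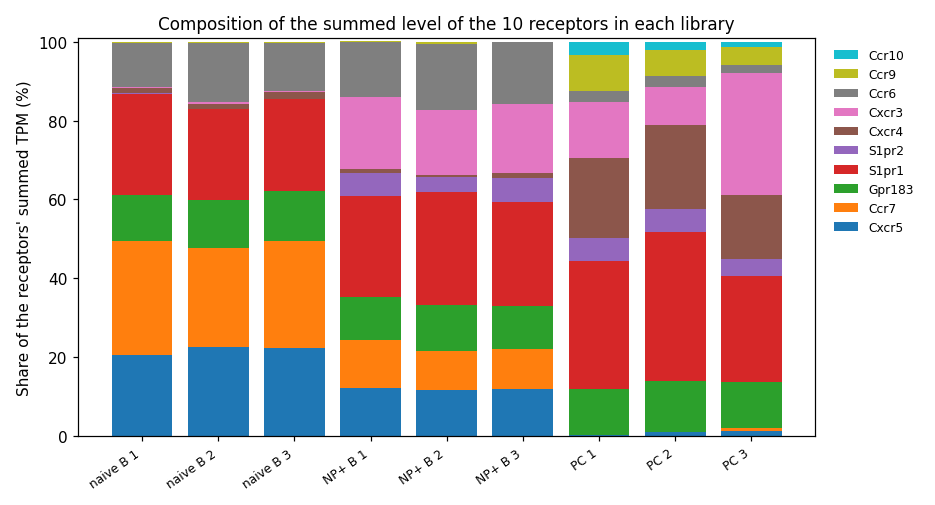
Share (%) of the summed TPM of the 10 receptors held by each receptor in each of the 9 libraries, stacked to 100%. Ccr7 and Cxcr5 filled nearly a majority of the naive bars and almost none of the PC bars, where S1pr1 and Cxcr4 held large parts, and PC replicate 3 had the largest Cxcr3 part at 31.1%.

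The first comparison asked how receptor transcripts differed between antigen-binding B cells that had not switched on Blimp1 and naive B cells. Of the 10 receptors, 2 rose (Cxcr3 and S1pr2) and 3 fell (Ccr7, Cxcr5 and Cxcr4), and the other 5 did not pass. Over all genes tested 18.5% were called in this comparison, 8.13% as higher and 10.4% as lower. The median change of the receptors was -0.40 on the log2 scale, against -0.16 over all genes tested, and moved with the scaling to -0.06 with TMM, -0.16 with median-of-ratios and -0.70 with quantile scaling, against 0.19, 0.08 and -0.08 over all genes. The groups did not overlap for 8 of the 10 receptors, 2 higher and 6 lower, against 55.9% of all genes tested (23.6% higher and 32.4% lower).

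The second comparison set PCs against the same naive libraries. Here 4 receptors were higher (S1pr2, Cxcr3, Ccr9 and Ccr10, the last of which entered the test only through its PC libraries), 5 were lower (Ccr7, Cxcr5, Ccr6, Gpr183 and S1pr1), and Cxcr4 did not pass. The background was 37.8% of genes called, 11.4% as higher and 26.3% as lower, and the median change was -1.54 for the receptors and -0.47 for all genes tested. The groups did not overlap for 9 receptors, 4 higher and 5 lower, against 69.7% of all genes (21.0% higher and 48.7% lower). With Ig genes kept in the table, where Ig transcripts take up part of the fixed TPM sum of PCs, 1 of the 9 receptors still tested was higher (S1pr2) and the same number, 5, was lower. Over the 12324 genes tested in that setting, 551 were called as higher and 7943 as lower, so most genes were lower there.

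The third comparison set PCs against NP+ B cells, again with libraries that the other comparisons use. All 10 receptors passed the test, 3 as higher (Ccr10, Cxcr4 and Ccr9) and 7 as lower, where 32.2% of all genes were called, 9.93% as higher and 22.3% as lower. The median change was -2.87 for the receptors and -0.30 over all genes. The groups did not overlap for 9 receptors, 2 higher and 7 lower, against 58.2% of all genes (17.3% higher and 40.9% lower), and Ccr9 was the exception. With Ig genes kept in the table, 0 of the 9 receptors tested were higher and 7 were lower. Over the 12324 genes tested in that setting, 420 were called as higher and 7355 as lower. The entry of Ccr10 through its PC libraries bears on this count too.

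**Figure D3:**
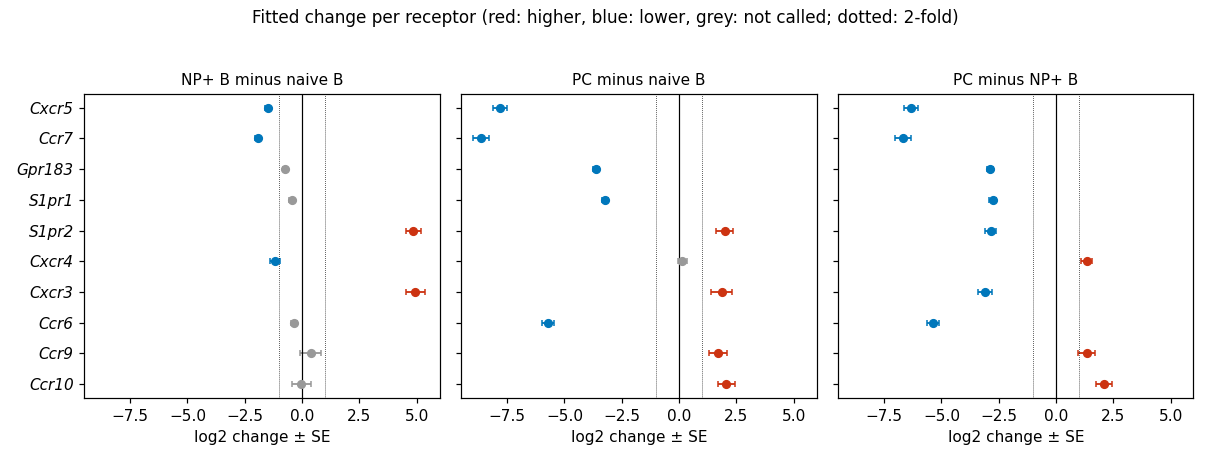
Fitted log2 change (horizontal axis, ± SE) of each receptor in the 3 comparisons, with red for higher, blue for lower and grey for not called; dotted lines mark a 2-fold change. Cxcr3 and S1pr2 lie to the right in NP+ B cells against naive B cells, and Ccr7 (-8.64) and Cxcr5 (-7.81) lie farthest left in PCs against naive B cells.

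The follicle and T cell zone receptors, Cxcr5 and Ccr7, were lower in NP+ B cells than in naive B cells and lower again in PCs. Cxcr5 was at 232, 244 and 254 TPM in the naive libraries, at 87.4, 89.0 and 84.4 TPM in NP+ B cells, and at 0.104, 0.748 and 1.21 TPM in PCs. The 3 groups stood clear of each other, and the PC values rested on 5, 37 and 58 estimated reads. Its log2 change was -1.49 ± 0.11 (SE) in NP+ B cells against naive B cells (adjusted p = 5.35e-06), -7.81 ± 0.30 in PCs against naive B cells (adjusted p = 5.14e-09) and -6.32 ± 0.30 in PCs against NP+ B cells (adjusted p = 3.54e-08). With the deposited log2 values in place of TPM, the first of these changes was -1.46 with an adjusted p of 0.0994 and was no longer called. The gene spans chr9:44511787-44561877 on the minus strand (GRCm38, GENCODE vM21) and shares 110 exonic bases with Bcl9l on the opposite strand, which was at 2.77, 2.11 and 0.134 TPM in the 3 groups.

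Ccr7, the receptor for CCL19 and CCL21, went lower still. It was at 330, 272 and 306 TPM in naive B cells, at 86.1, 76.2 and 73.6 TPM in NP+ B cells, and at 0.0572, 0.195 and 0.639 TPM in PCs. No library of a group reached that of another, and the first PC value corresponds to 2 estimated reads, below the 3-read floor of 0.087 TPM, with 31 reads over the 3 PC libraries. The log2 change was -1.94 ± 0.11 in NP+ B cells against naive B cells (adjusted p = 1.61e-06), -8.64 ± 0.34 in PCs against naive B cells (adjusted p = 5.76e-09) and -6.69 ± 0.34 in PCs against NP+ B cells (adjusted p = 5.62e-08). Ordered from the largest fall over all 12892 genes, the change between PCs and naive B cells ranked 5 for Ccr7 and 8 for Cxcr5. The PC values rest on few reads, so these sizes and ranks are approximate. Over the alternatives the change ranged from -10.38 to -7.89 for Ccr7 and from -8.91 to -7.23 for Cxcr5. Ccr7 lies at chr11:99144196-99155077 on the minus strand.

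The balance of Ccr7 and Cxcr5 within a library was examined as a log2 ratio of TPM + 0.5, which in PCs, where both genes were near 0, depends on the 0.5 added. It was 0.51, 0.16 and 0.27 in naive B cells, -0.02, -0.22 and -0.20 in NP+ B cells and -0.12, -0.84 and -0.59 in PCs. Every naive library thus held more Ccr7 than Cxcr5, and every other library less. The difference was -0.46 for NP+ B cells against naive B cells and -0.83 for PCs against naive B cells, each at the smallest p-value that 3 libraries against 3 can give in a two-sided exact permutation test, 0.1 (0.129 adjusted over 9 ratio tests). Between PCs and NP+ B cells it was -0.37 (exact permutation p = 0.3, adjusted 0.337), and the libraries overlapped.

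Gpr183 and S1pr1, which position cells at the follicle edge and at exits, differed by less than 2-fold between NP+ and naive B cells and fell in PCs. Gpr183 was at 133, 134 and 144 TPM in naive B cells, 79.4, 89.6 and 78.1 TPM in NP+ B cells and 10.1, 11.2 and 10.8 TPM in PCs. Its groups did not overlap, and its log2 change of -0.74 ± 0.09 in NP+ B cells (adjusted p = 0.00016) was under 2-fold and was not called. In PCs its log2 change was -3.62 ± 0.13 against naive B cells (adjusted p = 3.66e-09) and -2.88 ± 0.14 against NP+ B cells (adjusted p = 3.03e-08). With Ig genes kept the change in PCs against naive B cells was -4.7, with means of 3.12 and 128 TPM. Relative to Cxcr5 in the same library, however, Gpr183 stood above the naive ratio in 3 of 3 NP+ B cell libraries, with mean log2 ratios of -0.08 ± 0.08 and -0.82 ± 0.04 (difference 0.75, exact permutation p = 0.1, adjusted 0.129). In PCs the ratio was 3.36 ± 0.72, or 4.19 above naive B cells (exact permutation p = 0.1, adjusted 0.129). The gene (chr14:121952551-121965195, minus strand) lies within Ubac2 on the opposite strand and shares 0 exonic bases with it.

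S1pr1 was the most abundant of the receptors in the NP+ B cell and PC libraries by its mean. It was at 289, 249 and 265 TPM in naive B cells, 185, 220 and 188 TPM in NP+ B cells and 27.9, 33.1 and 24.8 TPM in PCs. The groups did not overlap. The log2 change was -0.45 ± 0.11 in NP+ B cells against naive B cells (adjusted p = 0.00738, under 2-fold and not called), -3.22 ± 0.14 in PCs against naive B cells (adjusted p = 1.06e-08) and -2.77 ± 0.14 in PCs against NP+ B cells (adjusted p = 4.71e-08). Its mean in PCs was 9.36-fold below naive B cells, and it still made up 32.3% ± 5.48 of the summed receptor level there. With Ig genes kept its means were 251 TPM in naive B cells and 8.32 TPM in PCs, with a log2 change of -4.38. S1pr1 lies at chr3:115710433-115715072 on the minus strand.

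S1pr2, the confinement receptor of germinal centre B cells, moved the other way in NP+ B cells. It was at 1.00, 0.588 and 0.855 TPM in naive B cells, 41.3, 28.6 and 43.6 TPM in NP+ B cells and 5.03, 5.18 and 4.01 TPM in PCs. The 3 groups were separate, with the PC libraries between the others. S1pr2 rose by 4.85 ± 0.33 (log2) in NP+ B cells against naive B cells (adjusted p = 3.21e-06), a 46.4-fold difference of means. Ordered from the largest rise over all genes tested, this change ranked 10. PCs were 1.99 ± 0.37 above naive B cells (adjusted p = 0.000763) and 2.85 ± 0.23 below NP+ B cells (log2 change -2.85, adjusted p = 1.89e-06). With Ig genes kept, the change between PCs and naive B cells was 1.04 (adjusted p = 0.0183). The gene lies at chr9:20962361-20976781 on the minus strand.

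S1pr2 was one of the 2 receptors that rose in NP+ B cells. The 250 bases before its RefSeq start (chr9:20976794-20977043, minus strand, GRCm38.p6) are shown, picked after their matches were seen. The window of Cxcr3, the other receptor that rose, held 1 E box and is not shown. Capitals mark E boxes, CANNTG read on both strands, the letters bound by E proteins.
S1pr2: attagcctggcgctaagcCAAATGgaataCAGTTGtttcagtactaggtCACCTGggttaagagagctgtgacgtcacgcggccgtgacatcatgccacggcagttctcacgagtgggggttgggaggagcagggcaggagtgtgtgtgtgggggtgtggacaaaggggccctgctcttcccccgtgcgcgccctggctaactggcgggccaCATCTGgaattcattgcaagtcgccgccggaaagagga
There are 4 E boxes in it, at positions -232, -221, -201 and -38 counted back from the start. At least 4 were found in 3.84% of the 32851 promoters of the RefSeq table, and at least 1 in 66.2%. A match of letters describes the window and does not show binding. Of the E box factors and inhibitors on the list of regulators, Tcf3 (E2A) was at 150, 109 and 83.5 TPM by group mean in naive B cells, NP+ B cells and PCs and passed no test. Id2 averaged 9.83 and 55.4 TPM in naive and NP+ B cells and was at 3.29, 3.87 and 23.7 TPM in the PC libraries, and Id3, named with Tcf3 after its values were seen, at 271, 137 and 4.23 TPM. Promoters were found for 6 of the 10 receptors (Cxcr4, S1pr2, Ccr9, Gpr183, Ccr6 and Cxcr3), 7 windows in all. They were searched for 5 motifs (this E box, the KLF core CACCC, the Blimp1 core GAAAGT, the PU.1 core GAGGAA and the T-box core TCACACC), and the windows printed for S1pr2 and Ccr6 were picked after the matches were seen.

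Cxcr4, the receptor tied to PC niches, was lowest in NP+ B cells. It was at 14.6, 13.2 and 18.4 TPM in naive B cells, 6.93, 4.58 and 8.39 TPM in NP+ B cells and 17.5, 18.6 and 15.0 TPM in PCs. The NP+ B cell libraries were below all others, and the naive and PC libraries overlapped. Its log2 change in NP+ B cells against naive B cells was -1.19 ± 0.23 (adjusted p = 0.00228), a call that was lost with TMM scaling (-0.85), with median-of-ratios scaling (-0.95) and without NP+ B cell replicate 2 (-0.96), since the change was then under 2-fold. In PCs it rose by 1.33 ± 0.23 over NP+ B cells (adjusted p = 0.000512). Between PCs and naive B cells the change was 0.14 ± 0.20 (adjusted p = 0.549), and with Ig genes kept it reversed to -0.98 (adjusted p = 0.0018), with means of 14.4, 5.94 and 4.96 TPM in naive B cells, NP+ B cells and PCs. The call against NP+ B cells was also lost there (0.21, adjusted p = 0.451). Cxcr4 lies at chr1:128588199-128592293 on the minus strand.

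The ratio of Cxcr4 to Cxcr5 turned over between B cells and PCs. As a log2 ratio of TPM + 0.5, whose size in PCs depends on the 0.5 added, it was -3.95, -4.16 and -3.75 in naive B cells and -3.56, -4.14 and -3.26 in NP+ B cells, and 4.90, 3.93 and 3.18 in PCs. Cxcr5 was the more abundant transcript in all 6 B cell libraries and Cxcr4 in all 3 PC libraries. The difference was 7.95 against naive B cells and 7.66 against NP+ B cells (each exact permutation p = 0.1, adjusted 0.129), and 0.30 between NP+ and naive B cells (exact permutation p = 0.4, adjusted 0.4).

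**Figure D4:**
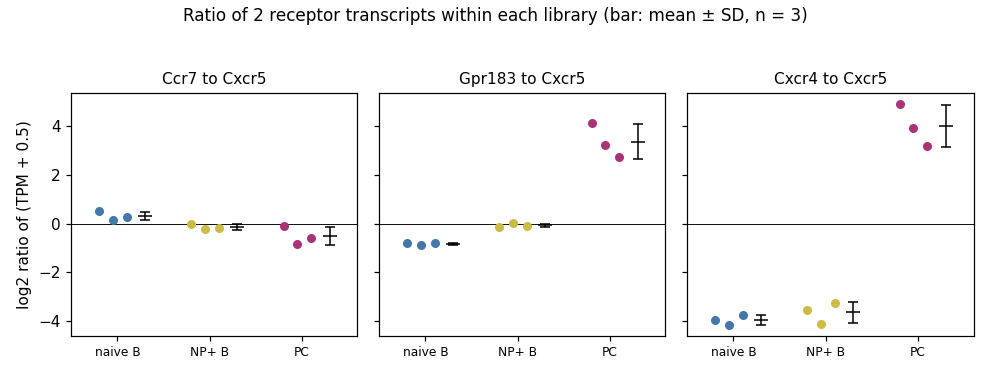
Log2 ratio of TPM + 0.5 of Ccr7, Gpr183 and Cxcr4 to Cxcr5 within each library, with points for libraries and bars for the mean ± SD of 3 libraries. The Cxcr4 ratio lay between -4.16 and -3.26 in the B cell libraries and between 3.18 and 4.90 in the PC libraries, and the Ccr7 ratio was above 0 in the naive libraries only.

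Cxcr3, the receptor for CXCL9 and CXCL10, was, with S1pr2, a receptor that rose steeply in NP+ B cells. It was at 2.83, 5.95 and 2.79 TPM in naive B cells, 133, 125 and 126 TPM in NP+ B cells and 12.4, 8.55 and 28.7 TPM in PCs. All NP+ B cell libraries were above every other library, and every PC library was above every naive library. The log2 change was 4.95 ± 0.40 in NP+ B cells against naive B cells (adjusted p = 9.34e-06), ranking 5 among the rises of all genes tested. It was 1.86 ± 0.45 in PCs against naive B cells (adjusted p = 0.00439) and -3.09 ± 0.30 in PCs against NP+ B cells (adjusted p = 7.55e-06). PC replicate 3 had the highest PC value, and without it the last 2 changes were 1.38 (adjusted p = 0.00294) and -3.56. With Ig genes kept the change between PCs and naive B cells was 0.74 (adjusted p = 0.123) and was not called. The gene lies at chrX:101731535-101734269 on the minus strand.

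Several of these receptors are also carried by T cells, NK cells and myeloid cells, so markers of those cells were read beside them. The 14 T cell markers summed to 60.9 to 72.7 TPM in naive B cells, 29.5 to 64.7 TPM in NP+ B cells and 116 to 148 TPM in PCs, where Cd28 alone made up 105 to 141 TPM. Of the T cell receptor complex, Cd3e was at or below 1.15 TPM, Cd3g at or below 1.61 TPM and Cd3d between 1.00 and 2.86 TPM in the 9 libraries, and Trac was listed at 0 in all of them. Lck was at 20.4 to 56.7 TPM in the B cell libraries and at or below 0.995 TPM in PCs. The 8 NK cell markers summed to at most 6.54 TPM in any library. The 14 macrophage and dendritic cell markers summed to 16.4 to 17.2 TPM in naive B cells, 87.8 to 108 TPM in NP+ B cells and 46.6 to 133 TPM in PCs. Of the 6 tested, 3 rose in NP+ B cells against naive B cells, where 8.13% of all genes tested were called as higher. Cd68 was at 45.0 to 67.6 TPM there against 3.88 to 4.05 TPM in naive B cells. Itgam was at 12.3 to 16.0 against 2.09 to 2.73 TPM and Flt3 at 15.8 to 19.4 against 1.76 to 2.38 TPM. The other 3 tested were not called. Emr1 was at 1.33 to 3.68 TPM in NP+ B cells against 2.93 to 4.23 TPM in naive B cells. Lyz2 was at 0.0305 to 5.51 against 0.668 to 1.73 TPM and Siglech at 0.57 to 1.73 against 1.02 to 1.88 TPM. C1qb was listed at 0 in all NP+ B cell libraries. PC replicate 3 held Lyz2 at 48.2 and C1qb at 15.9 TPM. The part of such cells in the Cxcr3 levels of NP+ B cells and of PC replicate 3 was not tested.

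Ccr6, the receptor for CCL20, differed 1.27-fold between naive and NP+ B cells by its means and fell in PCs. It was at 129, 164 and 139 TPM in naive B cells, 99.0, 129 and 112 TPM in NP+ B cells and 2.40, 2.44 and 1.92 TPM in PCs. The highest NP+ B cell library met the lowest naive library to within rounding, and the PC libraries were far below both. The log2 change was -0.36 ± 0.12 in NP+ B cells against naive B cells (adjusted p = 0.0381, under 2-fold and not called), -5.72 ± 0.25 in PCs against naive B cells (adjusted p = 1.48e-08) and -5.36 ± 0.26 in PCs against NP+ B cells (adjusted p = 3.28e-08). The PC mean was 63.9-fold below the naive mean. With Ig genes kept these means were 0.657 and 135 TPM, with a log2 change of -6.41.

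Ccr6 fell in PCs, as did Ccr7, Cxcr5, Gpr183 and S1pr1. Prdm1 averaged 98.2 TPM in PCs, 2.5 TPM in naive B cells and 4.76 TPM in NP+ B cells, and a link to Ccr6 was not tested. The window before a RefSeq start of Ccr6 (chr17:8242276-8242525, plus strand, GRCm38.p6) is shown, picked after its matches were seen. Capitals mark GAAAGT, a core of the recognition sequence of Blimp1, read on both strands.
Ccr6: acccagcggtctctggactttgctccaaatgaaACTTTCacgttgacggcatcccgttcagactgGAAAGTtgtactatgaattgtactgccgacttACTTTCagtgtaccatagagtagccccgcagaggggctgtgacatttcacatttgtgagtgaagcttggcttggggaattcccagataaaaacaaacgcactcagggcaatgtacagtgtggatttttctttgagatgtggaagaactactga
It holds the core 3 times, at positions -217, -185 and -153 from the start. At least 3 copies were found in 0.0913% of the 32851 promoters (30 of them) and at least 1 in 12.3%. RefSeq gives another start of Ccr6, whose window (chr17:8235793-8236042) has 0 copies, and the tables sum transcripts by gene, so they do not say which start was used. The letters describe the window and do not show binding. The windows of the other 5 receptors with a promoter had 0 copies. Ccr6 spans chr17:8236043-8257141.

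Ccr9 and Ccr10, the receptors of gut and mucosal homing, were the least abundant of the set in naive B cells with S1pr2, and were highest in PCs. Ccr9 was at 1.92, 1.07 and 1.38 TPM in naive B cells, 1.26, 4.22 and 1.40 TPM in NP+ B cells and 7.91, 5.84 and 4.15 TPM in PCs. The PC libraries were above all naive libraries and overlapped with NP+ B cell replicate 2. The log2 change was 1.70 ± 0.40 in PCs against naive B cells (adjusted p = 0.00359) and 1.33 ± 0.38 in PCs against NP+ B cells (adjusted p = 0.0118). Between NP+ and naive B cells it was 0.38 ± 0.45 (adjusted p = 0.519), and it reversed to -0.08 without NP+ B cell replicate 2. That library also held the neutrophil transcripts S100a8 and S100a9 at 24.7 and 23.9 TPM, against at most 0.279 TPM in the other B cell libraries, and the part of such cells in its Ccr9 level was not tested. The call against NP+ B cells was lost without a filter on low TPM (adjusted p = 0.0523), without NP+ B cell replicate 1 (1.07, adjusted p = 0.053) or 3 (1.12, adjusted p = 0.0506) and with Ig genes kept (0.34, adjusted p = 0.436), and the call against naive B cells with Ig genes kept (0.71, adjusted p = 0.113). Ccr9 (chr9:123678439-123784330, plus strand) has 10260 exonic bases. It shares 1932 with an antisense transcript, AC165425.1, 269 with Gm17200 on the same strand and 22 with Slc6a20a on the opposite strand. The library kit does not keep strand, so reads in the shared bases cannot be told apart by gene.

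Ccr10 was at 0.124, 0 and 0.056 TPM in naive B cells, 0, 0.166 and 0 TPM in NP+ B cells and 2.78, 1.76 and 1.26 TPM in PCs. These levels stand for 5, 0 and 2, then 0, 8 and 0, then 81, 53 and 36 estimated reads, and all PC libraries were above the rest. Since the gene passed the filter on low values only through the group where it is high, its fitted log2 changes of 2.07 ± 0.36 against naive B cells and 2.10 ± 0.36 against NP+ B cells are given as a description. For so low a gene the fitted change follows the offset added before the log, and over the alternatives it ranged from 1.44 to 5.37 and from 1.45 to 6.21. Between NP+ and naive B cells the change was -0.03 ± 0.42 (adjusted p = 0.962), and both groups are too low for a direction. Ccr10 (chr11:101172997-101175443, minus strand) lies within Cntnap1 and shares 0 exonic bases with it.

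The genes whose profile over the 9 libraries lay nearest to each receptor were found by the distance between log2 values centred on each gene's mean, and no function is read from this. Gpr183 had the closest match, Rhof, at a distance of 0.204, with means of 136, 82.1 and 10.9 TPM in naive B cells, NP+ B cells and PCs. S1pr1 was nearest to Coro1a at 0.296 and Flna at 0.408, and Coro1a, an actin regulator of lymphocyte motility, was at 2590, 1860 and 304 TPM. Cxcr4 was nearest to Zfp874a at 0.326. Ccr7 was nearest to Fcer2a, which encodes CD23, at 0.70, and Cxcr5 to Ciita, the class II transactivator, at 0.929. Within the set, Ccr7 and Cxcr5 were each other's nearest receptor (1.18), as were Gpr183 and S1pr1 (0.608) and Ccr9 and Ccr10 (1.25). Cxcr3 and S1pr2, nearest to each other at 1.92, shared Mef2b as a near gene (1.86 and 1.32), with means of 5.32, 104 and 14 TPM. All libraries of a group share their sort and their scaling, so a small distance describes these 9 libraries only.

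Receptors outside the set were read from a list of 43 chemoattractant receptors, of which 23 were tested. These and the lists that follow are read against the shares of all genes called, 18.5% in NP+ against naive B cells, 37.8% in PCs against naive B cells and 32.2% in PCs against NP+ B cells. In NP+ B cells against naive B cells 6 were called as higher and 4 as lower (median -0.24). The counts were 9 and 3 under TMM (median 0.10), 8 and 3 under median-of-ratios and 8 and 5 under quantile scaling. Of the 6 first called as higher, P2ry13 (means of 0.23, 3.29 and 0.294 TPM) passed the filter on low values only through its NP+ B cell libraries. This call and its call as lower in PCs than in NP+ B cells are therefore a description. Ackr2, a decoy receptor that removes inflammatory chemokines, rose from 3.65, 3.75 and 3.79 TPM in naive B cells to 102, 108 and 110 TPM (log2 change 4.66), and was at or below 0.682 TPM in PCs. Gpr34, a lysophosphatidylserine receptor, rose from means of 1.63 to 49.1 TPM, and the S1P receptor S1pr3 from 11.3 to 61.3 TPM with 0.261 TPM in PCs. S1pr4 fell from 99.0 to 35.1 TPM. P2ry10 fell from 33.9 to 11.9 TPM and was at 9.16 TPM in PCs. Ackr2, Gpr34 and S1pr3 thus had their highest level in the libraries where Cxcr3 and S1pr2 had theirs. Against naive B cells, PCs had 3 of the 23 higher and 11 lower (median -0.66), and 5 were higher with TMM, median-of-ratios or quantile scaling (medians -0.17, -0.13 and -0.07). Relative to NP+ B cells the counts were 3 and 12 (median -1.52). Gpr55 was at 28.6, 27.9 and 21.5 TPM in PCs, against at most 3.76 TPM in B cells, and P2ry14 at 21.0, 33.2 and 10.5 TPM, against at most 0.428 TPM, so that P2ry14 entered the test only through its PC libraries. Cnr2, a cannabinoid receptor, fell from 112 and 43.6 TPM to 1.63 TPM. Ackr3, the other receptor for CXCL12, was at 1.76, 3.38 and 3.70 TPM by group mean and passed no test, but was called as higher in NP+ B cells with TMM scaling (1.09), and for PCs against naive B cells with TMM (1.42), median-of-ratios (1.46) and quantile scaling (1.52).

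**Figure D5:**
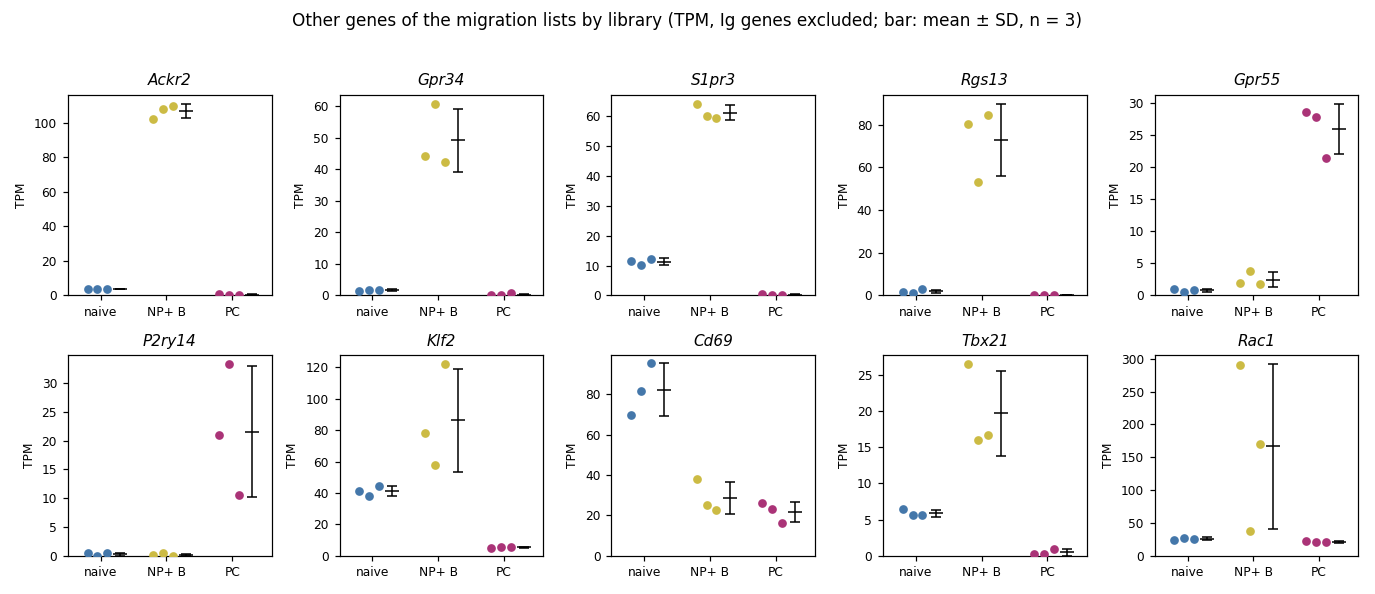
Level (TPM, linear axis from 0) in the 9 libraries of 10 genes from the lists of other receptors, signalling genes and regulators, drawn as for the receptors. Ackr2, Gpr34, S1pr3 and Rgs13 peaked in NP+ B cells, Gpr55 and P2ry14 in PCs, and Rac1 spread from 38.4 to 290 TPM within NP+ B cells.

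Ligands and the enzymes that make or break down lipid ligands formed a list of 30 genes, with 17 tested. In NP+ B cells 2 were called as higher and 6 as lower against naive B cells (median -0.41), in PCs 1 was higher and 5 lower (median -0.56), and relative to NP+ B cells 2 were lower in PCs and 0 higher in limma, although 1 was higher with TMM, median-of-ratios or quantile scaling, and with Ig genes kept 6 of 14 tested were lower (median -0.49 against 0.04). Of the 6 and 5 called as lower against naive B cells, 5 (Spns2, Ggt5, Ccl4, Cxcl16 and Mfsd2b, with naive means of 4.98, 1.98, 1.86, 1.31 and 1.28 TPM) and 3 (Spns2, Ggt5 and Ccl4) passed the filter only through the naive libraries, where they are high, so that these counts are a description and no support for a fall of the list. The genes of S1P metabolism named here differed in direction. They were named by the size of their change or by role, so this is a description and no result for the pathway. Sphk2, a kinase that makes S1P, fell from 21.9 to 8.44 TPM in NP+ B cells, a change of -0.99 and not called with TMM scaling, and was at 7.01 TPM in PCs. Sgpp1, an S1P phosphatase, rose from a mean of 5.67 TPM to 42.4, 12.4 and 34.6 TPM in the NP+ B cell libraries and was at 2.01 TPM in PCs. Ppap2a, a lipid phosphate phosphatase, rose from 1.73 to 25.3 TPM and was at 16.2 TPM in PCs. Ppap2b, its paralog, fell from 9.07 and 11.3 TPM to 0.306, 0.265 and 2.81 TPM in the PC libraries, the last of them the library with liver transcripts. Sgpl1, the S1P lyase, passed no test at 76.4, 58.5 and 59.6 TPM, but with Ig genes kept was called as lower in PCs against naive B cells (-1.56) and NP+ B cells (-1.14). Ch25h, the enzyme that begins the synthesis of the GPR183 ligand, was below 0.4 TPM in all libraries and was not tested.

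Of genes that carry or end the receptors' signal, more were lower than higher in PCs under every scaling tried. Of 50 listed, 47 were tested, 5 rose and 5 fell in NP+ B cells (median -0.03), with 9 and 2 under TMM, 7 and 2 under median-of-ratios and 6 and 7 under quantile scaling, PCs had 3 higher and 30 lower than naive B cells (median -1.46), and relative to NP+ B cells the counts were 2 and 32 (median -1.27). Of these calls Grk5, higher in NP+ B cells than in either other group, passed the filter only through its NP+ B cell libraries. With TMM, median-of-ratios and quantile scaling 23, 23 and 28 were lower against naive B cells, and 29, 24 and 21 against NP+ B cells. Of all 12892 genes, 1852, 1781 and 2047 were lower against naive B cells, and 2466, 2076 and 1843 against NP+ B cells. Gnai2, the G protein subunit that most chemokine receptors use, was at 615, 652 and 211 TPM by group mean and fell in PCs. Gna13, the subunit through which S1PR2 acts, was at 42.2, 48.3 and 20.2 TPM, and its fall of 1.05 in log2 between naive B cells and PCs was under 2-fold and not called with TMM, median-of-ratios or quantile scaling (-0.57, -0.53 and -0.64), as was its fall of 1.22 between NP+ B cells and PCs with median-of-ratios and quantile scaling (-0.95 and -0.76). Arhgef1, an exchange factor that acts downstream of Gα13, was at 403, 228 and 78.3 TPM and fell in PCs, and with quantile scaling also in NP+ B cells (-1.19). Rgs13, which shortens G protein signals in germinal centre B cells, was at 1.64, 1.36 and 2.89 TPM in naive B cells and at 80.4, 53.4 and 84.6 TPM in NP+ B cells. Rgs10 rose in PCs, with means of 8.47, 14.1 and 73.2 TPM, whereas Rgs18 fell from 10.2 and 17.0 to 0.149 TPM. Rgs1, a brake on chemokine signals, passed no test at 0.785, 2.6 and 1.54 TPM, but was called as higher in NP+ against naive B cells with TMM (1.51), median-of-ratios (1.41) and quantile scaling (1.49) and with Ig genes kept (1.13), and as lower in PCs against NP+ B cells with Ig genes kept (-1.07). Rasgrp2, which activates Rap1 and integrins, was at 297, 293 and 20.3 TPM and fell in PCs. Gnas, the Gαs subunit, was at 73.6, 289 and 197 TPM, with 461, 127 and 279 TPM in the NP+ B cell libraries, and was called as higher in both NP+ B cells and PCs against naive B cells, the latter not with Ig genes kept (0.19, adjusted p = 0.662). Pik3cg, a kinase driven by Gβγ, was at 32.0, 13.8 and 60.1 TPM and rose between NP+ B cells and PCs, though by under 2-fold with Ig genes kept (0.88). Arrb1, which encodes β-arrestin 1, fell from 9.18 to 3.27 TPM in NP+ B cells, and Rassf2 from 84.5 to 27.3 TPM. Rac1 was called higher in NP+ B cells, where its libraries read 290, 38.4 and 171 TPM, and NP+ B cell replicate 2 was thus the lowest of its group for Rac1, Gnas and Sgpp1.

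The regulators of these receptor genes or of their surface level were 32 listed genes, all tested. In NP+ B cells 3 rose and 6 fell against naive B cells (median -0.50). That balance of the list turned over with TMM (6 and 2) and median-of-ratios scaling (5 and 2). So did the balance of all genes, from 1048 higher and 1340 lower to 1869 and 591, and to 1556 and 753. The list's balance did not turn with quantile scaling (3 and 8) or with Ig genes kept (3 and 7). All genes split into 1157 and 976, and 1068 and 1426, in these settings. PCs had 3 higher and 22 lower than naive B cells (median -2.16), and relative to NP+ B cells the counts were 3 and 21 (median -1.98). Klf2, a factor that drives S1pr1 transcription, was at 41.4, 38.0 and 44.4 TPM in naive B cells, 78.4, 58.0 and 122 TPM in NP+ B cells and 5.20, 5.37 and 5.50 TPM in PCs. The NP+ B cell libraries were above all others, and the change of 0.98 missed the 2-fold threshold and was past it with TMM (1.32) and median-of-ratios scaling (1.22). In PCs Klf2 fell by 2.84 on the log2 scale against naive B cells, and S1pr1 fell too. In NP+ B cells S1pr1 did not follow Klf2, at 197 against 268 TPM in naive B cells (log2 change -0.45, not called). A link between them was not tested. Cd69, whose protein removes S1PR1 from the surface, fell from 82.2 to 28.6 TPM in NP+ B cells and was at 21.7 TPM in PCs, where with Ig genes kept it was also called as lower than in NP+ B cells (-1.52). Tbx21, which encodes T-bet, an activator of Cxcr3, was at 6.43, 5.58 and 5.64 TPM in naive B cells, 26.4, 16.0 and 16.6 TPM in NP+ B cells and 0.243, 0.194 and 0.964 TPM in PCs. It rose, as did Cxcr3, in NP+ B cells and fell below its naive level in PCs, where Cxcr3 stayed above its own. The T-box core had 0 matches in the Cxcr3 window, where 3.33% of all promoters hold it, and this says only that those letters are not there. Bcl6, the germinal centre repressor, was at 45.2, 16.9 and 0.623 TPM and fell in NP+ B cells, where S1pr2 rose. Prdm1 and Irf4, which drive PC identity, were the regulators with the largest rise in PCs, with Irf4 at 25.1, 11.1 and 112 TPM, and with Ig genes kept the change of Irf4 against naive B cells was under 2-fold (0.91). Spib and Cd22 had the largest falls, from 397 and 732 TPM in naive B cells to 1.15 and 3.23 TPM in PCs.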

How the data were processed

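RNA was made into cDNA with the SMARTer v4 kit and into libraries with Nextera XT, which keep no strand. The deposited TPM values were made by the authors with kallisto on mouse transcripts, mm10 per the labels, and summed by gene symbol. The authors also deposited log2 values, made with voom from the same estimates, and estimated counts were recovered from them through their 0.5-count offset. Which sequencer read which library is not given, so batches could not be examined.

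Here, voom and limma (version 3.58.1, R 4.3.3) were run on the TPM table that lacks Ig genes, scaled by column sums, in 1 model of 3 group means over the 9 libraries. The filter kept genes that reached 1 TPM in 3 or more libraries. Because 0.5 is added before the log, changes of low genes are understated. The method was also run on simulated data, and no outcome of that is reported or relied on here. Alternatives covered scaling, filters, pseudocounts, the deposited log2 values, estimated counts, Ig genes kept, and leaving out each library. Per the study, NP-binding cells of both kinds came from the same 3 mice, so NP+ B cells and PCs share animals, while no source says which libraries share a mouse, so the replicate number was tried as a block only as an alternative.

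The receptors and lists were chosen with earlier results of these data known. From each list the text names, in each comparison, the 2 called genes that rose most and the 2 that fell most among those with a mean TPM of at least 5 in the higher group, and genes named by role. Promoters are from RefSeq (GRCm38.p6) and gene coordinates from GENCODE vM21 (GRCm38).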

Additional observations from a re-analysis of the deposited data

How the results depend on the processing

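The log2 change of each receptor in each comparison was recomputed under every alternative. Of these values, 339 kept their direction and side of the threshold under alternatives other than leaving out a library, 8 lost their call and 4 changed sign. On leaving out each library in turn 263 were kept, 3 lost their call and 4 changed sign. The change of Ccr10 between NP+ and naive B cells turned to 0.31 with TMM scaling, 0.21 with median-of-ratios scaling, 0.13 with quantile normalization and between -0.17 and 0.05 on leaving out a library. That of Ccr9 lay between -0.08 and 0.63 on leaving out a library, and that of Cxcr4 in PCs against naive B cells turned to -0.98 with Ig genes kept. With Ig genes kept the receptors higher in PCs were 1 against naive B cells and 0 against NP+ B cells, and with a mean TPM of at least 10, which leaves 8 receptors, 2 and 1. With Ig genes kept Ccr10 was below the filter. Ig transcripts take part of the TPM sum there. The cause of the other changes was not tested.

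TMM, median-of-ratios and quantile scaling moved the median change of all genes from -0.16 to 0.19, 0.08 and -0.08 in NP+ against naive B cells and from -0.47 to 0.01, 0.04 and -0.07 in PCs against naive B cells. The median of the receptors in PCs moved from -1.54 to -1.06, -1.03 and -1.23 against naive B cells and from -2.87 to -2.74, -2.60 and -2.38 against NP+ B cells, and with Ig genes kept, over 9 receptors, to -4.38 and -3.95. Among all genes, calls split into 1048 higher and 1340 lower in NP+ against naive B cells, 1869 and 591 with TMM scaling, 1556 and 753 with median-of-ratios scaling, 1157 and 976 with quantile normalization. For PCs against naive B cells the split was 1473 and 3397, then 2332 and 1852, 2411 and 1781, 2063 and 2047, and with Ig genes kept 551 and 7943. For PCs against NP+ B cells it was 1280 and 2870, then 1539 and 2466, 1778 and 2076, 1795 and 1843, and with Ig genes kept 420 and 7355. Ratios in PCs moved with the pseudocount because Cxcr5 and Ccr7 were near 0. Against naive and then NP+ B cells, a pseudocount of 0.1 gave -1.22 and -0.76 for Ccr7 to Cxcr5, 8.79 and 8.54 for Cxcr4 to Cxcr5, and 4.97 and 4.22 for Gpr183 to Cxcr5, and a pseudocount of 1 gave 3.67 and 2.93 for the last.

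With the replicate number as a block the receptors higher and lower were 2 and 3 in NP+ against naive B cells, 4 and 5 in PCs against naive B cells and 3 and 7 in PCs against NP+ B cells, as without it, and 2453, 4898 and 4238 of all genes were called. Deviations of same-numbered libraries correlated at -0.07 to 0.07, and in no comparison did every library match its own number best, so the numbers were not taken as pairs.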
